A study of Mus musculus with 12 samples.

Results

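The comparison described here sets the ventricles of 4 TAC-BacNav mice against those of 4 TAC-mScarlet mice, 8 of the 12 libraries in the study, chosen by the group named in each mouse's title. All mice were wild-type C57Bl/6J. TAC-BacNav mice underwent transverse aortic constriction and received AAV9-MHCK7-BacNav-mScarlet. TAC-mScarlet mice underwent the same operation and received AAV9-MHCK7-mScarlet, so constriction, the AAV9 capsid, the MHCK7 promoter and the red fluorescent protein mScarlet were shared by both groups. MHCK7 is a promoter active in heart and skeletal muscle. The remaining 4 mice, Sham-NT, had a sham operation and PBS, and serve below as the level without constriction or vector. The sources used here give neither mouse age, vector dose nor the time from surgery to harvest. Vector transcripts were not analysed here, so group membership rests on the titles.

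BacNav is a voltage-gated sodium channel of bacterial origin, whose gene is short enough to fit an AAV vector. Transverse aortic constriction narrows the aorta and raises the pressure the left ventricle works against. In a loaded ventricle, muscle cells grow, return to fetal genes such as Myh7 and the natriuretic peptides, and lower genes of mitochondrial oxidation, while fibroblasts deposit matrix. The study's title places the question in sodium and calcium handling, and the comparison asks whether hearts given the channel differed from hearts that had the same operation and were given only the reporter. No measure of the load itself was analysed here.

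In TAC-BacNav ventricles, hypertrophic, stretch-responsive and fibrotic transcripts had lower means than in TAC-mScarlet ventricles, and several interferon-inducible GTPases had higher means, but no gene passed the edgeR test. Of 13910 genes tested with edgeR's quasi-likelihood test, 0 (0%) were called at an adjusted p below 0.05, and the smallest Benjamini-Hochberg adjusted p was 0.780. DESeq2 called 5 genes on the same counts, among them Igtp and BC023105 on the higher side and Myh7 and Ankrd1 on the lower side, and limma-voom called 0. Unadjusted p-values below 0.05 were found for 467 genes (3.36% of those tested), 192 higher in TAC-BacNav (1.38%) and 275 lower (1.98%). Since none of these passed the adjustment, single genes are given below as values and not as changes. The libraries of the 2 groups did not overlap for 106 genes on the higher side (0.762%) and 130 on the lower side (0.935%). The median log2 fold change over all genes was 0.0036, the median of its size was 0.12 and the median standard error (SE) was 0.19.

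**Figure D1:**
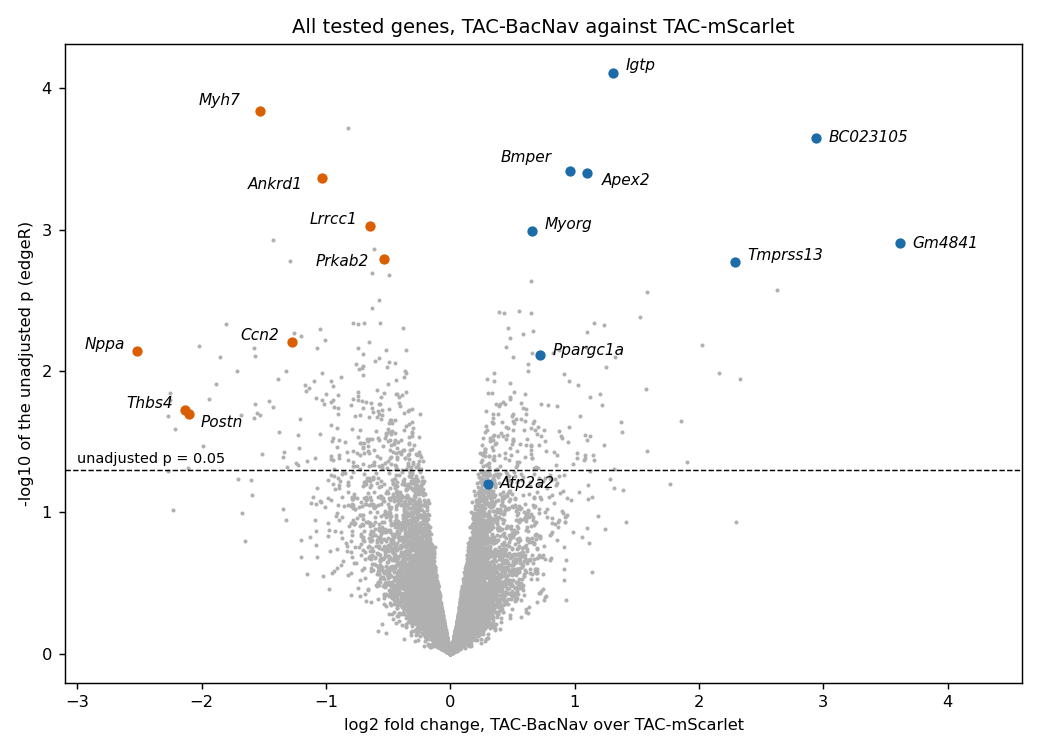
Each point is 1 of 13910 genes, with the log2 fold change of TAC-BacNav over TAC-mScarlet on the x axis and the unadjusted p on a −log10 scale on the y axis. Igtp and Myh7 lie at the top on opposite sides, and no gene was called after adjustment.

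Total counts ran from 7.36 to 11.5 M in TAC-BacNav, from 8.28 to 9.81 M in TAC-mScarlet and from 5.36 to 7.84 M in Sham-NT (M, mega-counts). Ventricular muscle markers were high in every library, with Myl2, the ventricular regulatory light chain, between 13671 and 29445 library-scaled counts (CPM). The atrial light chain Myl7 lay between 0.116 and 5.35 CPM. Libraries within a group were about as far apart as libraries of different groups. The leading log2 fold change over 500 genes had a median of 1.85 between TAC-mScarlet libraries, 1.97 between TAC-BacNav libraries and 1.84 across the 2 groups. Fos, an immediate early gene, split both groups: it was 301, 123, 154 and 7.89 CPM in TAC-mScarlet mice 1 to 4, and 158, 225, 3.87 and 5.26 CPM in TAC-BacNav mice 1 to 4. TAC-mScarlet mouse 3 also stood apart, with the highest collagen and the lowest Myh6 levels of the 8 constricted mice. For many of the results that move with these libraries, values without them are also given.

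The heart muscle genes with the smallest p were members of the fetal and load-responsive programme. Myh7, the slow beta myosin heavy chain that loaded mouse ventricles re-express, was 673, 715, 1129 and 476 CPM in TAC-mScarlet and 149, 199, 415 and 272 CPM in TAC-BacNav, beside 130 to 164 CPM in Sham-NT. Every TAC-BacNav value lay below every TAC-mScarlet value, and TAC-BacNav mouse 1 lay within the sham range. The log2 fold change was −1.53 ± 0.29 (SE; 95% interval −2.17 to −0.90), a 2.89-fold lower level. The unadjusted p was 0.00015 and the edgeR adjusted p was 0.78. Among the 5 constricted libraries with Fos above 20 CPM the Myh7 difference was −2.27. Among the 3 below 20 CPM it was −0.48, in a setting chosen after the data were seen that holds only 1 TAC-mScarlet mouse. The part of the Fos side in these values was not tested. Myh7 shares near-identical sequence with Myh6 and some exon bases with Mhrt and other genes on the opposite strand, and the strand setting of the counting is unknown here, so its reads cannot be fully told apart from theirs. Myh6, the fast alpha chain of the unloaded adult mouse ventricle, was 9315, 9300, 4764 and 9208 CPM in TAC-mScarlet and 13450, 9997, 10516 and 12365 CPM in TAC-BacNav. These groups did not overlap either, in the other direction, with a log2 fold change of 0.51 ± 0.20 (SE) and an adjusted p of 1.00. TAC-mScarlet mouse 3 was far below the rest, and without it the Myh6 difference was 0.32.

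Ankrd1, a titin-associated ankyrin repeat protein of the sarcomere that responds to stretch, was 4282, 3971, 7349 and 6550 CPM in TAC-mScarlet and 1756, 2426, 3328 and 3303 CPM in TAC-BacNav. The groups did not overlap, and all 8 values exceeded the Sham-NT range of 655 to 961 CPM. The difference was −1.03 ± 0.23 on the log2 scale (SE; 95% interval −1.53 to −0.54), and the adjusted p was 0.86. Nppa, which encodes atrial natriuretic peptide, was 406, 376, 2871 and 1348 CPM in TAC-mScarlet and 73.9, 141, 333 and 325 CPM in TAC-BacNav. The highest TAC-BacNav heart lay below the lowest TAC-mScarlet heart, and the Sham-NT mice held 28.7 to 62.2 CPM. Nppa had the most negative log2 fold change of the hypertrophic list, −2.52 ± 0.74 (SE), with a wide 95% interval of −4.18 to −0.85 and an adjusted p of 1.00. Without TAC-mScarlet mouse 3 it was −1.70. Of the exon bases of Nppa, 62% overlap Gm13054 on the opposite strand.

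Other genes of the same programme overlapped between the groups. Acta1, the skeletal alpha actin re-expressed under load, was 4916, 2709, 6847 and 6673 CPM in TAC-mScarlet and 305, 1757, 4863 and 5050 CPM in TAC-BacNav. TAC-BacNav mouse 1 was close to the Sham-NT range of 84.7 to 251 CPM while mice 3 and 4 were among the TAC-mScarlet values. The Acta1 log2 fold change was −0.82 ± 0.71 (SE), or −0.44 without TAC-BacNav mouse 1. It was −2.23 among the constricted libraries with Fos above 20 CPM and −0.43 among those below. Nppb, the brain natriuretic peptide gene, ranged from 663 to 2006 CPM in TAC-mScarlet and from 655 to 1242 CPM in TAC-BacNav, a difference of −0.66 ± 0.39. Xirp2, an actin-binding protein of the intercalated disc, was 1688, 1394, 3382 and 2754 CPM against 557, 932, 1572 and 1692 CPM, a difference of −0.96 ± 0.35. Rcan1, an inhibitor of calcineurin whose transcript is itself driven by calcineurin and NFAT, was 341, 145, 372 and 529 CPM against 129, 219, 181 and 185 CPM. Mouse 2 of TAC-mScarlet was the low value in that group and lay inside the TAC-BacNav range. The Rcan1 difference was −0.96 ± 0.32 (SE). Of 32 tested genes of calcineurin, NFAT and CaMKII signalling, 19 were below 0 and 13 above, with a median of −0.04. At an unadjusted p below 0.05, 1 of them (3.1%) was lower, against 1.98% of all genes.

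**Figure D2:**
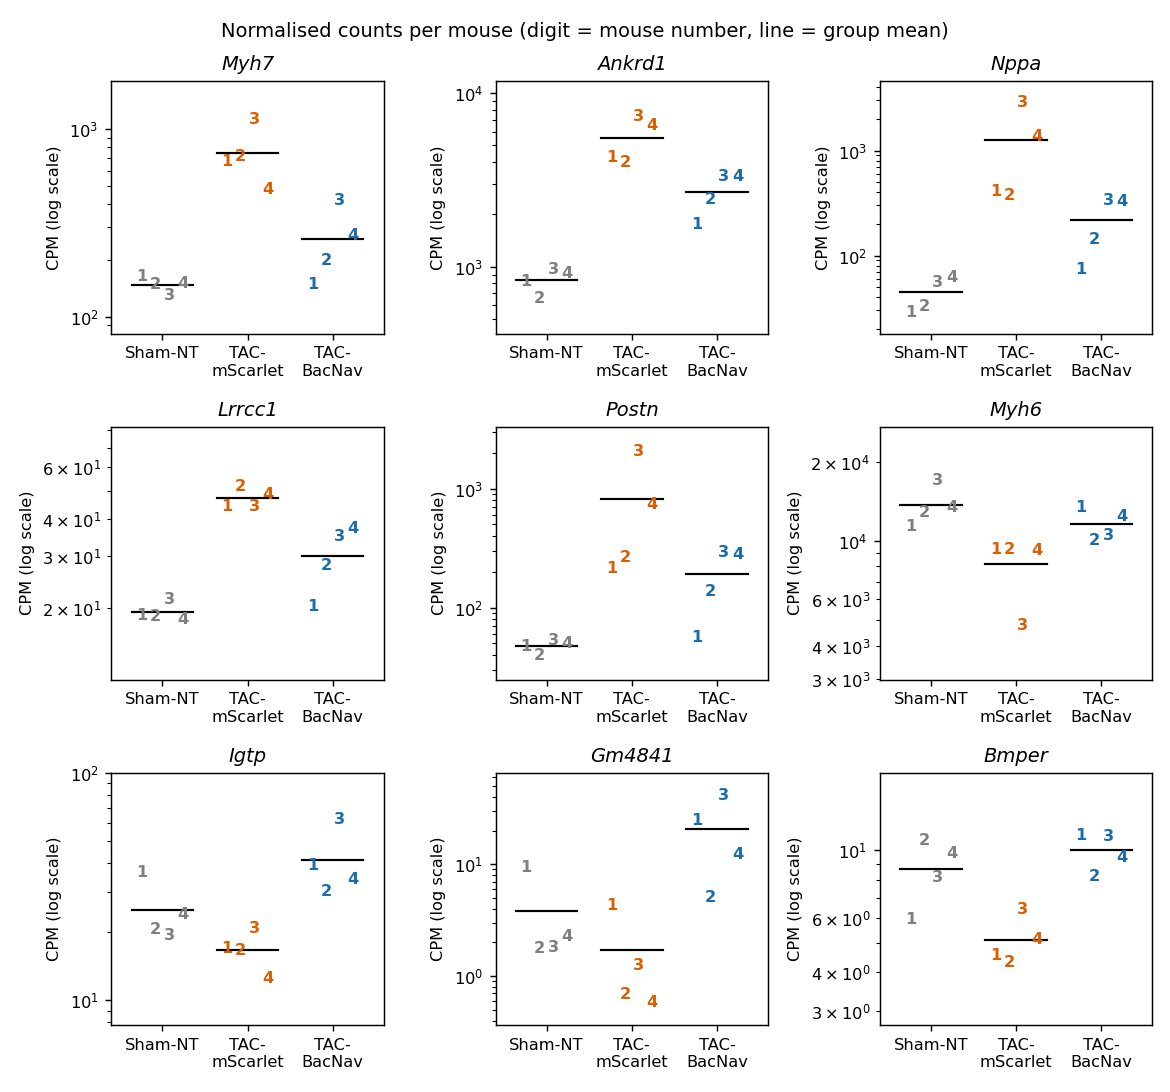
CPM (log axis) of 9 genes in each mouse of the Sham-NT, TAC-mScarlet and TAC-BacNav groups; each digit is the mouse number within its group and the line is the group mean. For Myh7, Ankrd1, Nppa, Lrrcc1, Myh6, Igtp, Gm4841 and Bmper the 2 constricted groups do not overlap, and for Postn TAC-BacNav mice 3 and 4 lie above the lowest TAC-mScarlet mice.

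Across the list of 22 tested hypertrophic and fetal genes, 20 had log2 fold changes below 0, as had 49.2% of all genes, and 9 (40.9%) were lower at an unadjusted p below 0.05, against 1.98% of all genes. None was higher at that threshold. The list median was −0.49, beside 0.0036 over all genes. Its mean level, in log2(CPM + 1), was 7.18, 6.86, 7.59 and 7.31 in TAC-mScarlet mice and 6.34, 6.72, 6.85 and 6.74 in TAC-BacNav mice, so the groups did not overlap. In Sham-NT mice it was 5.88 to 6.04, below all 8 constricted hearts. Without TAC-mScarlet mouse 3 the median was −0.37 and 5 members were lower at that threshold, beside 105 of all 14018 genes. The median was −0.73 among the libraries with Fos above 20 CPM and −0.43 among those below. Among 17 stretch-responsive ankyrin repeat and LIM proteins, 14 were below 0. At the unadjusted threshold 4 (23.5%) were lower, against 1.98% of all genes, among them Fhl1, a LIM protein of the sarcomere, at −0.78 ± 0.33. Fhl2, a related LIM protein, was the 1 member higher at that threshold (5.88%, against 1.38% of all genes), at 0.30 ± 0.14. Without TAC-mScarlet mouse 3, Fhl1 was −0.32 and Fhl2 0.19. At that threshold 2 members were then lower, beside 105 of all 14018 genes. The member count was also 2 without TAC-mScarlet mouse 4 (313 of 14053 genes), TAC-BacNav mouse 1 (198 of 14073) or TAC-BacNav mouse 3 (283 of 14123). In bulk tissue a smaller number of cells of a type and less RNA per cell cannot be told apart, which holds for each list below. Members of a list can vary together between mice, so no list count in these results is a count of independent results.

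The promoter of Ankrd1 is shown because this gene had the smallest p among the members of the stretch-responsive list and of the list of YAP and TEAD targets. TEAD factors, which mediate transcription by the coactivator YAP, bind the muscle element MCAT. The 250 bases before the RefSeq start of Ankrd1 (GRCm38.p6, chr19:36119845-36120094, minus strand) are written 5′ to 3′ with matches to the MCAT letters CATTCC or GGAATG, searched on both strands, in capitals.
Ankrd1: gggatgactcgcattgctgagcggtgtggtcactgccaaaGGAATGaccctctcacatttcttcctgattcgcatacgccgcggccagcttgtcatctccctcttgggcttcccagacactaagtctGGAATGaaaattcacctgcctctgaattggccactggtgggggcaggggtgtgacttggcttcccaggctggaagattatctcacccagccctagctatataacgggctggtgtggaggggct
The window holds 2 MCAT matches. Of 32851 RefSeq windows of the same length, 12.6% hold at least 1, and of 13314 windows of genes tested here, 11.0% do. A match was found for 7 of 15 YAP and TEAD target genes with a window, 7 of 20 hypertrophic genes and 3 of 16 stretch-responsive genes. These counts are per gene, over any of its windows, whereas the shares are per window, so they are not on 1 scale. Some genes have more than 1 window, and Ankrd1 is counted in all 3 lists. A match is a string of letters and no measured binding. The expression of the YAP and TEAD list gave 15 of 20 members below 0, against 49.2% of all genes, and 3 (15%) lower at an unadjusted p below 0.05, against 1.98%, with a median of −0.09. Among the 3 constricted libraries with Fos below 20 CPM, a setting chosen after the data were seen, 12 of the 20 were above 0 and the median was 0.12. That setting holds only 1 TAC-mScarlet mouse. Ccn2, a matricellular protein and standard YAP target, was 381, 227, 934 and 663 CPM in TAC-mScarlet and 151, 220, 300 and 240 CPM in TAC-BacNav, which overlapped only through TAC-mScarlet mouse 2. Its log2 fold change was −1.28 ± 0.38 (SE), with 23% of its exon bases overlapped by Gm15270 on the opposite strand.

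Among 30 genes of TGF-beta, activin and CCN signalling, 21 were below 0 and 9 (30%) were lower at an unadjusted p below 0.05, again against 1.98% of all genes. No member was higher at that threshold, and the list median was −0.13. Of the ligands, Tgfb2 was 31.1, 28.2, 69.8 and 69.7 CPM in TAC-mScarlet and 15.8, 19.9, 29.0 and 31.2 CPM in TAC-BacNav, a difference of −1.05 ± 0.31. The groups overlapped only at their edges. Tgfb3 differed by −0.55 ± 0.21, whereas Tgfb1, the best studied of the 3 ligands, differed by −0.10 ± 0.14. Gdf15, a stress-induced hormone of the same superfamily, was 3.70, 2.38, 15.8 and 13 CPM against 0.930, 3.86, 4.27 and 2.79 CPM, a difference of −1.57 ± 0.58. Without TAC-mScarlet mouse 3, 4 of the 30 were lower at the unadjusted threshold, beside 105 of all 14018 genes, and the median was −0.08. Without TAC-BacNav mouse 1, 5 were lower, beside 198 of all 14073 genes.

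Matrix genes had large differences in the mean and large spread between mice. Postn encodes periostin, a matrix protein made by activated fibroblasts. It was 213, 263, 2067 and 736 CPM in TAC-mScarlet and 56.2, 135, 290 and 281 CPM in TAC-BacNav, beside 39.6 to 52.4 CPM in Sham-NT. The 2 highest TAC-BacNav hearts exceeded the 2 lowest TAC-mScarlet hearts, and the log2 fold change of −2.10 ± 0.76 (SE) became −1.08 without TAC-mScarlet mouse 3. Thbs4, a thrombospondin induced in loaded hearts, followed the same order of mice, with 24.8, 31.8, 240 and 96.0 CPM against 5.58, 17.1, 34.3 and 32.5 CPM. Its difference was −2.13 ± 0.76, and −1.18 without that mouse. Col12a1, a fibril-associated collagen, was 2.27, 3.85, 33.4 and 14.4 CPM against 0.814, 1.45, 5.74 and 3.29 CPM. Col1a1, the main chain of type I collagen, was 122, 97.5, 307 and 175 CPM in TAC-mScarlet and 60.7, 120, 130 and 129 CPM in TAC-BacNav. TAC-BacNav mouse 1 was at the sham level of 56.6 to 69.2 CPM, the other 3 were within the TAC-mScarlet range, and the difference was −0.67 ± 0.33, or −0.26 without TAC-mScarlet mouse 3.

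As groups, 32 of 34 tested collagen and collagen-processing genes, 33 of 36 matrix glycoproteins and proteoglycans, and 14 of 16 markers of activated fibroblasts had fold changes below 0. At an unadjusted p below 0.05, 7, 9 and 9 of them were lower, or 20.6%, 25% and 56.2%, against 1.98% of all genes. The medians were −0.41, −0.52 and −1.17. Acta2, smooth muscle actin, which myofibroblasts share with vessel walls, was the 1 activated fibroblast marker higher at an unadjusted p below 0.05. It differed by 0.65 ± 0.26, or 0.36 without TAC-BacNav mouse 2. These counts depended on single libraries, most of all on TAC-mScarlet mouse 3. Without it, 0 collagens, 1 matrix gene and 0 activated fibroblast markers were lower at the unadjusted threshold, beside 105 of all 14018 genes. The medians were then −0.15, −0.22 and −0.39. Leaving out TAC-BacNav mouse 1 left 1, 3 and 3 (198 of all 14073 genes), and TAC-BacNav mouse 2 left 3, 4 and 3 (225 of 14140). Without TAC-mScarlet mouse 1 the counts were 13, 18 and 12 (331 of 14068), and without TAC-mScarlet mouse 2 they were 18, 16 and 12 (420 of 14048). The activated fibroblast count was also 4 without TAC-mScarlet mouse 4 (313 of 14053) and 5 without TAC-BacNav mouse 4 (341 of 14053). Resting fibroblast markers, such as the collagen-binding proteoglycan gene Dcn, had a median of −0.14 over 20 genes, with 0 lower and 1 higher, the scavenger receptor gene Scara5, at that threshold.

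**Figure D3:**
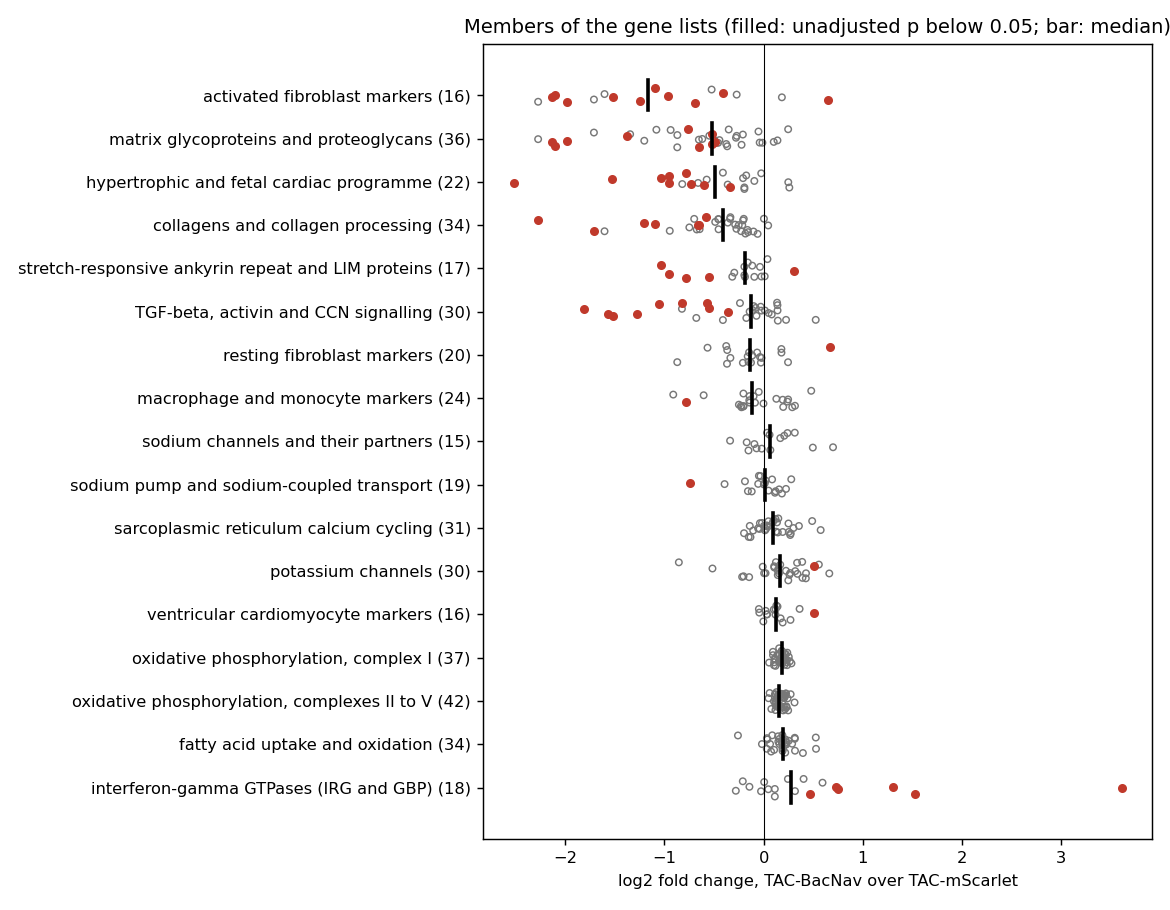
Each point is the log2 fold change (x axis, TAC-BacNav over TAC-mScarlet) of 1 gene in the list named on the y axis, with the number of tested members in brackets; filled points had an unadjusted p below 0.05 and the bar is the list median. Fibrotic and hypertrophic lists lie left of 0, the oxidative lists form narrow groups right of 0, and the interferon GTPases reach 3.61.

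Among genes of ion handling, the subject of the study's title, few had an unadjusted p below 0.05. Scn4b, a beta subunit of the cardiac sodium channel, was 65.1, 55.2, 21.8 and 35.1 CPM in TAC-mScarlet and 52.7, 60.7, 37.8 and 68.3 CPM in TAC-BacNav. The values were interleaved, and the log2 fold change was 0.31 ± 0.32 (SE), with a 95% interval of −0.39 to 1.02. It was 0.09 without TAC-mScarlet mouse 3 and 0.56 without TAC-mScarlet mouse 1. None of 15 sodium channel genes and partners had an unadjusted p below 0.05, and the list median was 0.06, with a range of −0.0039 to 0.19 when 1 library was left out. Of 19 genes of the sodium pump and sodium-coupled transport, 1 (5.26%, against 3.36% of all genes) was below that threshold, the pump regulator Fxyd6. Fxyd6 was 60.9, 56.5, 130 and 72.6 CPM in TAC-mScarlet and 37.3, 52.1, 55.4 and 47.3 CPM in TAC-BacNav, without overlap, a difference of −0.74 ± 0.23, or −0.40 without TAC-mScarlet mouse 3.

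Slc8a1, the sodium-calcium exchanger that links both ions, was 356, 345, 327 and 428 CPM in TAC-mScarlet and 399, 432, 407 and 417 CPM in TAC-BacNav. The difference of 0.18 ± 0.12 had a 95% interval of −0.08 to 0.45. Atp2a2, the SERCA pump that returns calcium to the sarcoplasmic reticulum, was 11051, 10670, 7061 and 10436 CPM against 13826, 11370, 10952 and 12164 CPM, a difference of 0.30 ± 0.15 with an interval of −0.02 to 0.62. The groups met at 11051 and 10952 CPM, and without TAC-mScarlet mouse 3 the Atp2a2 difference was 0.17. The calcium release channel Ryr2 differed by 0.19 ± 0.20 (0.015 without that mouse), phospholamban (Pln) by 0.12 ± 0.15, calsequestrin (Casq2) by −0.04 ± 0.16 and the L-type channel Cacna1c by −0.01 ± 0.15. For the kinase Camk2d the difference was −0.00 ± 0.10, with an interval of −0.22 to 0.22. Of 31 sarcoplasmic reticulum genes, 22 were above 0 with a median of 0.09 (0.05 without that mouse), and 0 had an unadjusted p below 0.05, as had 0 of 18 calcium channel subunits. Among 30 potassium channel genes 24 were above 0 with a median of 0.16. Kcnd2, which carries the fast transient outward current of mouse ventricle, was 16.6, 19.0, 12.5 and 10.1 CPM in TAC-mScarlet and 23.5, 22, 17.5 and 19.5 CPM in TAC-BacNav, a difference of 0.50 ± 0.21. Gja1, the ventricular gap junction protein connexin 43, differed by −0.36 ± 0.23, or −0.22 without TAC-BacNav mouse 3.

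**Figure D4:**
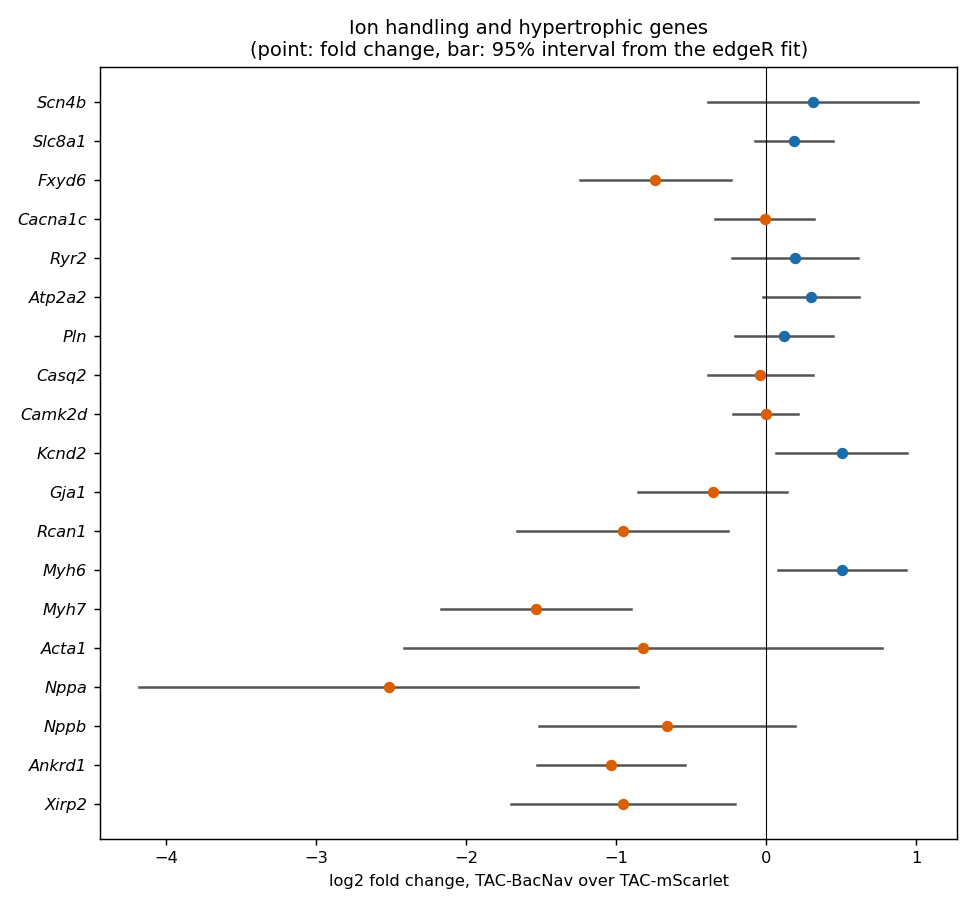
Points are log2 fold changes of TAC-BacNav over TAC-mScarlet for ion handling and hypertrophic genes, with 95% intervals from the edgeR fit before any adjustment for the number of genes. The intervals of Scn4b, Slc8a1, Cacna1c, Ryr2, Atp2a2, Pln, Casq2 and Camk2d include 0, and those of Myh7, Ankrd1 and Nppa do not.

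Interferon-inducible GTPases of the IRG and GBP families attack the vacuoles of intracellular pathogens and are induced by interferon-gamma. Igtp, which encodes Irgm3 of the IRG family, had the smallest p of all genes. It was 17.0, 16.5, 20.7 and 12.4 CPM in TAC-mScarlet and 39.1, 29.9, 62.6 and 34.1 CPM in TAC-BacNav. The groups did not overlap, and Sham-NT, at 19.3 to 36.3 CPM, lay between them and overlapped both. The log2 fold change was 1.31 ± 0.24 (SE; 95% interval 0.79 to 1.83), 2.48-fold higher, with an unadjusted p of 7.8e-05 and an adjusted p of 0.78. Gm4841, a gene of the same family, was 4.30, 0.680, 1.25 and 0.580 CPM against 24.8, 5.07, 41.2 and 12.2 CPM. Its difference was 3.61 ± 0.83, again without overlap. BC023105, annotated as a processed pseudogene, was 1.79, 1.02, 1.25 and 0.928 CPM against 15, 5.79, 11.7 and 6.25 CPM, a difference of 2.94 ± 0.60. Reads of near-identical copies could have been split between them, so the values of Gm4841 and BC023105 are uncertain. Igtp and Irgm2 also share exon bases on 1 strand, 8% of those of Igtp.

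The RefSeq promoters of Igtp and Irgm2 are shown because these neighbouring genes differed in the same direction. Irgm2 was 33.5, 30.9, 38.4 and 27.6 CPM in TAC-mScarlet and 40.3, 38.4, 52.3 and 49.3 CPM in TAC-BacNav, a difference of 0.47 ± 0.14. The windows are the 250 bases before each start on GRCm38.p6, chr11:58199306-58199555 for Igtp and chr11:58214727-58214976 for Irgm2, both plus strand. Capitals mark a gamma-activated site (GAS, TTCNNNGAA), followed by an interferon-stimulated response element (ISRE, GAAA and GAAA with 2 bases between, or the reverse complement), the element of IRF factors.
Igtp: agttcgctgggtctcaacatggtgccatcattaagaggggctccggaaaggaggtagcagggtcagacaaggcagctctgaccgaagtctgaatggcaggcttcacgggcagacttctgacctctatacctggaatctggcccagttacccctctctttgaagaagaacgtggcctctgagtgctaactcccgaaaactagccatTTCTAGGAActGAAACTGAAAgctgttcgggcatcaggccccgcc
Irgm2: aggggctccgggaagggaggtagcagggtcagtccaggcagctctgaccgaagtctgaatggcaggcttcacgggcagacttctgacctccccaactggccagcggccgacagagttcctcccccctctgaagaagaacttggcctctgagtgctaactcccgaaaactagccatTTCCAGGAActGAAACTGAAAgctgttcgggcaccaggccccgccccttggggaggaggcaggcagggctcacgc
Both windows hold the pair of elements with the same spacing, and the elements do not overlap each other. The window of Tgtp1, the lowest of the tested IRG and GBP genes at −0.28, holds a pair with that spacing too. The ISRE letters were found for 10 of the 11 GTPase genes that have a window and the GAS letters for 7. Of all windows 2.98% hold the ISRE letters and 7.02% the GAS letters, each searched on both strands. The counts are per gene, over any of its windows, and the shares are per window. The match is a description of the letters, and binding was not measured.

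Of 18 tested IRG and GBP genes, among 23 listed, 14 were above 0 and 6 (33.3%) were higher at an unadjusted p below 0.05, against 1.38% of all genes. Besides Igtp, Gm4841 and Irgm2 these were Gm12250, annotated as a processed pseudogene, Gbp6 and Gvin1. Their differences were 1.53 ± 0.46, 0.73 ± 0.27 and 0.75 ± 0.31, in that order. None of the 18 was lower at that threshold, and the list median was 0.28. The remaining 12 lay between −0.28 for Tgtp1 and 0.59 for Gbp8. Gbp6 was 18.5, 17.0, 16.2 and 22.2 CPM in TAC-mScarlet and 22.1, 19.7, 41.6 and 39.0 CPM in TAC-BacNav, high in mice 3 and 4, the mice with low Fos. The 3 constricted libraries with Fos below 20 CPM, chosen after the data were seen, set 2 TAC-BacNav mice against TAC-mScarlet mouse 4 alone. In log2(CPM + 1), that mouse had the lowest mean level of this list among the 12 mice, 3.56. In that setting all 18 were above 0 with a median of 0.87. Among the 5 libraries above 20 CPM, 10 were above 0, with a median of 0.09. The part of the Fos side in this result was not tested. Of 28 antiviral interferon-stimulated genes, 0 had an unadjusted p below 0.05 and the median was 0.10. Without TAC-mScarlet mouse 3, 27 of the 28 were above 0 with a median of 0.29. At that threshold 4 were higher, beside 127 of all 14018 genes. In the libraries with low Fos, 23 were above 0 and the median was 0.43. Without TAC-mScarlet mouse 3 the IRG and GBP list had 8 members higher and a median of 0.41. The difference between the lists was not tested. In the list of interferon signalling and MHC class I, with 29 genes and a median of 0.02, Socs3, a feedback inhibitor of cytokine receptors, was lower at −0.79 ± 0.29, or −0.43 without TAC-mScarlet mouse 3, when the list median was 0.14. The T and NK cell list had 2 tested genes of 17, and the macrophage list had a median of −0.12 over 24. The sign of that median turned without TAC-mScarlet mouse 3, to 0.10 with 19 of 24 above 0, and was also above 0 in the libraries with low Fos, at 0.17.

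The transcripts of mitochondrial energy supply differed little per gene but in 1 direction. All 37 tested complex I genes and all 42 genes of complexes II to V were above 0, against 50.8% of all genes. Their medians were 0.19 and 0.16, and 0 had an unadjusted p below 0.05. Ndufs8, a complex I core subunit at the high end, was 279, 257, 241 and 264 CPM in TAC-mScarlet and 379, 352, 305 and 231 CPM in TAC-BacNav, a difference of 0.28 ± 0.15. The lowest value of all 8 was TAC-BacNav mouse 4 and the highest was TAC-BacNav mouse 1. The mean level of the complex I list, in log2(CPM + 1), ran in the same way from 8.35 in mouse 4 to 8.97 in mouse 1, around 8.53 to 8.70 in TAC-mScarlet. Genes of 1 complex vary together between libraries, so the number above 0 does not count independent results. Among the 3 libraries with Fos below 20 CPM, 24 of the 37 and 22 of the 42 were above 0, and the medians were 0.02 and 0.0073. Among the 5 libraries with Fos above 20 CPM all were above 0, with medians of 0.30 and 0.33. In that setting 24 and 31 were higher at an unadjusted p below 0.05, beside 541 of all 14208 genes. Without TAC-BacNav mouse 4, the counts at that threshold were 12 and 10, beside 360 of all 14053 genes, and the medians were 0.30 and 0.29. Without TAC-BacNav mouse 1 the medians were 0.10 and 0.09. The part of the Fos side in these values was not tested. Fatty acid genes were above 0 in 32 of 34 cases with a median of 0.19, and genes of the citrate cycle and branched-chain amino acids in 29 of 30 with a median of 0.18. Without TAC-mScarlet mouse 3 these medians were 0.08 and 0.07, and without TAC-BacNav mouse 1 they were 0.12 and 0.08. In the libraries with low Fos, 17 of the 30 citrate cycle and amino acid genes were above 0, with a median of 0.02.

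Single metabolic genes went further. Ppargc1a, the coactivator PGC-1alpha that drives mitochondrial gene expression, was 71.2, 65.6, 42.4 and 81.0 CPM in TAC-mScarlet and 101, 75.8, 99.9 and 151 CPM in TAC-BacNav, a difference of 0.72 ± 0.23 with 1 overlapping value. Ckmt2, the mitochondrial creatine kinase of the sarcomere, was 2392, 2200, 2060 and 2516 CPM against 3135, 2806, 3211 and 2532 CPM. Its groups did not overlap and its difference was 0.35 ± 0.12. Prkab2, a regulatory subunit of the energy sensor AMPK, was lower, with 92.9, 81.7, 126 and 90.1 CPM against 62.8, 69.8, 59.4 and 78.3 CPM and a difference of −0.53 ± 0.14. The glycolytic genes Eno3 and Pkm differed by 0.44 ± 0.17 and 0.24 ± 0.11, and Eno3 by 0.26 without TAC-BacNav mouse 1. Of 29 genes of glycolysis and glucose uptake, 20 were above 0 and 9 below, with a median of 0.08. That median was −0.04 in the libraries with low Fos. At an unadjusted p below 0.05, 3 (10.3%) were higher, against 1.38% of all genes, and 0 were lower. Pfkfb1, of the family that sets fructose 2,6-bisphosphate, differed by 1.24 ± 0.37, and its opposite-strand neighbour Apex2, an endonuclease, by 1.10 ± 0.25. Because their exons overlap, reads of Pfkfb1 and Apex2 cannot be fully told apart.

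**Figure D5:**
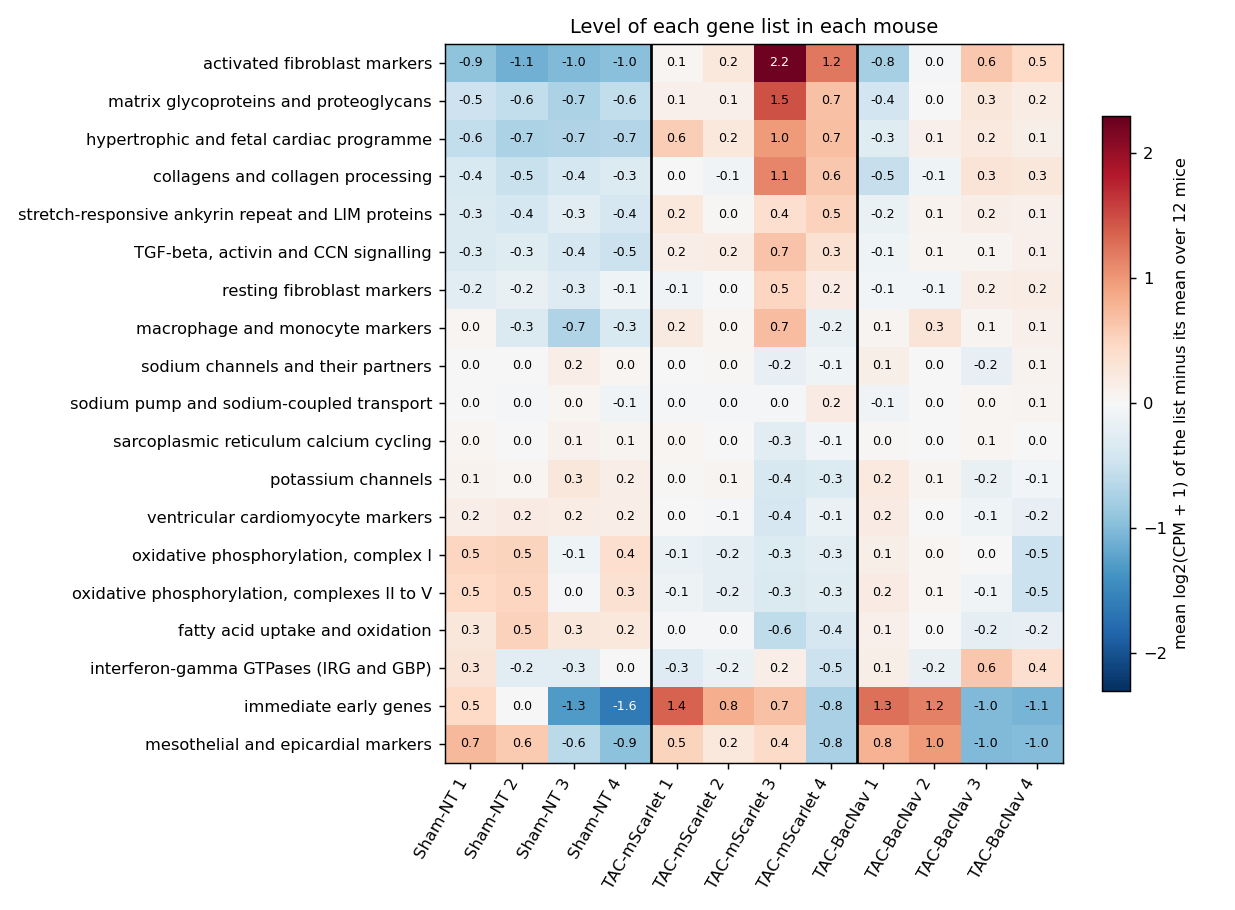
Each cell is the mean log2(CPM + 1) of a gene list in 1 mouse minus the mean of that list over 12 mice, with mice grouped on the x axis. TAC-mScarlet mouse 3 is highest for the matrix, collagen and activated fibroblast lists, and TAC-BacNav mouse 1 is lowest of the constricted mice for the same lists. The immediate early list splits every group, Sham-NT included.

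Genes outside these programmes also stood among the smallest p. Bmper, a secreted modulator of bone morphogenetic proteins, was 4.54, 4.30, 6.42 and 5.10 CPM in TAC-mScarlet and 11.2, 8.21, 11.1 and 9.45 CPM in TAC-BacNav. The groups did not overlap, the Sham-NT mice lay at 5.95 to 10.7 CPM, and the difference was 0.96 ± 0.21 (SE) with an adjusted p of 0.86. Chrd, the BMP antagonist chordin, was 3.46, 5.21, 2.97 and 4.41 CPM against 8.84, 5.43, 8.67 and 5.67 CPM, also without overlap, and Bmp7 differed by 1.10 ± 0.46. Of 19 BMP genes these 3 were higher at an unadjusted p below 0.05 (15.8%, against 1.38% of all genes), and the list median was −0.01. Lrrcc1, a centrosomal coiled-coil protein, was 44.2, 51.4, 44.3 and 48.4 CPM in TAC-mScarlet and 20.2, 27.9, 34.8 and 37.3 CPM in TAC-BacNav, a difference of −0.64 ± 0.16. Myorg, a glycosidase of the secretory pathway, differed by 0.66 ± 0.16, and Mylk4, a kinase of the myosin light chain kinase family, by 1.10 ± 0.33, both without overlap. Itgb5, an integrin subunit that binds vitronectin, differed by −0.49 ± 0.13 with 134, 119, 196 and 147 CPM against 105, 103, 112 and 105 CPM.

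The Sham-NT level puts these values in place. Sham-NT mice had neither constriction nor vector, so load and vector cannot be told apart in the contrasts with sham. TAC-mScarlet and TAC-BacNav share the Sham-NT libraries as reference, and the contrast of TAC-mScarlet with Sham-NT shares the TAC-mScarlet libraries with the contrast above, so the contrasts are set side by side without a test between them. TAC-mScarlet against Sham-NT called 369 genes higher (2.65%) and 350 lower (2.52%). TAC-BacNav against Sham-NT called 2 higher (0.0144%) and 0 lower (0%). Among the called was Ankrd1, at 1.69 ± 0.24 with an adjusted p of 0.040, which in TAC-mScarlet rose by 2.72 ± 0.25. The medians of the hypertrophic list were 1.21 for TAC-mScarlet and 0.60 for TAC-BacNav over sham. For the activated fibroblast markers they were 2.55 and 1.32, and for complex I −0.58 and −0.42. For the IRG and GBP list they were −0.08 and 0.17. The smaller number of calls in TAC-BacNav is not a test of a difference between the constricted groups, for which the direct comparison gave 0.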

How the data were processed

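Counts per gene were used as deposited by the authors, 1 file per mouse, with 14957 genes each. The authors aligned with HISAT2 and counted with featureCounts, per the submitters' processing notes. Versions and strand setting: not given in the sources used here. Those notes name the human build GRCh38, although 14946 identifiers matched mouse GENCODE vM21 (GRCm38), the source of exon overlaps. No gene had under 30 counts in all, so a filter on low counts preceded deposit. Counts were fitted with edgeR 4.0.16 in R 4.3.3 (quasi-likelihood, robust, TMM scaling) over 12 libraries, which share 1 estimate of the spread. Genes kept by filterByExpr numbered 13910, and 1047 were removed. Two-sided p-values were adjusted by the Benjamini-Hochberg method over the genes tested. The common biological coefficient of variation was 0.203. SE is the absolute log2 fold change over the root of its F statistic. CPM is the count divided by the TMM-scaled library size in mega-counts. The mice are separate animals by their titles, and no pair of libraries within a group agreed within sampling noise.

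The gene lists, anchors and alternatives were chosen with earlier results of these data known. Named genes are 30 anchors, up to 15 per direction with the smallest p and 6 with the largest non-overlapping change (mean of at least 1 CPM), up to 3 per list and direction at an unadjusted p below 0.05, and genes called by an alternative that called 5 or fewer. Other genes (Fos, Myl2, Myl7, Dcn, Gbp6, Gbp8, Gdf15, Gvin1, Ndufs8, Tgfb1, Tgfb3, Tgtp1, Plvap) were chosen after their values were seen. Alternatives included DESeq2 1.42.0, limma-voom (limma 3.58.1), other scalings and filters, and leaving out each library. Mitochondrially encoded genes and vector transcripts were not analysed here, and some genes among the anchors and lists are not reported here.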

Additional observations from a re-analysis of the deposited data

Results flagged for a closer look

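In 7 of 202 groups of 4 libraries, 1 library lay far from the other 3 by Dixon's test at 95%. Chance alone marks about 1 in 20 groups. Myh6 was 4764 CPM in TAC-mScarlet mouse 3 and 9208 to 9315 in the others, and Atp2a2 was 7061 CPM there against 10436 to 11051. Col1a1 was 60.7 CPM in TAC-BacNav mouse 1 against 120 to 130, and Ung, a uracil DNA glycosylase, was 29.8 CPM there against 18 to 19.9. In TAC-BacNav mouse 3, Clu, the chaperone clusterin, was 598.9 CPM against 521 to 526. Zfp385b was 8.45 CPM in TAC-BacNav mouse 2 against 5.81 to 6.17, and Mrpl47, a mitochondrial ribosomal protein gene, was 32.5 CPM in TAC-mScarlet mouse 2 against 39.2 to 39.4.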

How the results depend on the processing

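No gene was called in the fit reported, nor with library size or RLE scaling, without a filter, with a mean of at least 1 CPM, with the Fos side as a term, with limma-voom or among libraries with Fos below 20 CPM. The 8 constricted mice alone gave 1 call (BC023105), DESeq2 gave 5 (among them Igtp and BC023105 higher, Myh7 and Ankrd1 lower), and the libraries with Fos above 20 CPM, 2 against 3, gave 2 (Mir6236 and Myh7). Leaving out 1 library gave 0 to 1 calls, BC023105 without Sham-NT mouse 1. Genes at an unadjusted p below 0.05 numbered 714 with the Fos term and 1027 above 20 CPM. Leaving out 1 library gave 232 (without TAC-mScarlet mouse 3) to 701 (without TAC-BacNav mouse 4). Genes without overlap numbered 241 to 906 when 1 library was left out, 3614 above 20 CPM and 8349 below it. Fewer libraries overlap less by construction, and the cause of the other shifts was not tested.

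With the mouse number as a block, 6 genes were called, among them BC023105 and Gm4841 higher and Nppa, Col12a1 and Ankrd1 lower. The number is no known pairing. Deviations of same-numbered mice correlated at 0.38, −0.02, 0.17 and 0.38, and TAC-BacNav mice 1 and 4, but not 2 and 3, correlated best with their own number.

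Of 101 named genes, 93 kept their sign in each alternative that gave them a value, 21 to 23 per gene. Camk2d reached 0.00089 with the block, 0.032 above 20 CPM, 0.00030 with limma-voom and −0.054 to 0.034 with 1 library left out. That last range was −0.10 to 0.098 for Cacna1c, −0.11 to 0.037 for Casq2 and −0.0018 to 0.20 for Pln. Below 20 CPM, a setting chosen after seeing the data with 2 against 1 libraries, Cox7a1 was −0.016, Cacna1c 0.16, Acta2 −0.19, Slc8a1 −0.059 and Mir6236 −2.14. Mir6236 was −0.14 with limma-voom. Of 54 list medians, 22 kept their sign in every alternative. With 4 mice a group and a median SE of 0.19, small differences could not be resolved.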

Other observations

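Cell type lists were also compared between TAC-BacNav and TAC-mScarlet. Of 21 endothelial markers 18 were above 0 with a median log2 fold change of 0.10, and 0 had an unadjusted p below 0.05. The lowest was Plvap, a component of fenestrated and venous endothelium, at −0.28. Of 16 ventricular cardiomyocyte markers 13 were above 0 with a median of 0.12, which was 0.03 without TAC-BacNav mouse 1 and 0.04 without TAC-mScarlet mouse 3. The 12 mesothelial markers had a median of 0.14 whose sign was not stable. It ran from −0.37 without TAC-BacNav mouse 2 to 0.52 without TAC-BacNav mouse 4. Among the libraries with Fos above 20 CPM it was 0.70. In that setting 5 of 12 were higher at an unadjusted p below 0.05, beside 541 of all 14208 genes. The 5 red blood cell genes were all below 0 with a median of −0.74, which ran from −1.25 to −0.38 when 1 library was left out, and their mean level ranged from 3.43 to 6.49 in TAC-mScarlet and from 3.85 to 6.01 in TAC-BacNav, in log2(CPM + 1), so the groups overlapped widely. S100a8, a neutrophil calcium-binding protein, was 8.84, 14.4, 22.9 and 0.928 CPM against 5.23, 4.47, 0.667 and 0.740 CPM. The 3 values below 1 CPM came from the 3 constricted mice with Fos below 20 CPM. Of the 8 tested neutrophil and mast cell markers, 5 were below 0 and 3 above, with a median of −0.11. That median ran from −0.42 to 0.10 when 1 library was left out and was 0.52 in the libraries with low Fos. Cd14, the lipopolysaccharide co-receptor of monocytes, was 20.8, 14.4, 23.4 and 13.5 CPM against 10.0, 12.4, 10.3 and 9.21 CPM without overlap, a difference of −0.79 ± 0.24.

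Quality lists were also compared. The 25 immediate early genes had a median of −0.12, the 16 glucocorticoid-responsive genes 0.11, the 19 clock genes −0.03 and the 40 cytosolic ribosomal protein genes −0.02. Of these, 1 gene had an unadjusted p below 0.05, the clock repressor Nr1d1, at −0.43 ± 0.16. Cell cycle genes had a median of 0.06 over 27, and the genes of the unfolded protein response and heat shock −0.03 over 26, with 0 below that threshold in either list. Most of these medians turned sign when 1 library was left out. The immediate early median ran from −0.67 without TAC-BacNav mouse 1 to 0.17 without TAC-BacNav mouse 3, the clock median from −0.05 to 0.19, the ribosomal median from −0.07 to 0.06 and that of the unfolded protein response from −0.10 to 0.18. The glucocorticoid median was above 0 throughout, from 0.01 to 0.19, and the cell cycle median ran from −0.00032 to 0.15.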
